A study of Mus musculus with 2 samples.

Results

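The synaptotagmin genes were examined in primary mouse myoblasts exposed to Wnt3a. The set held 10 genes (Syt1, Syt2, Syt4, Syt5, Syt7, Syt8, Syt11, Syt12, Syt13 and Syt17), picked by name from a comparison of these same arrays. All 25 probe sets that the platform annotation assigned to these genes alone were used, out of 34945 probe sets and 18193 genes. The array held 16 synaptotagmins with 34 probe sets, and the other 6 genes (Syt3, Syt6, Syt9, Syt10, Syt14 and Syt16) are described after the 10. Syt15 was not analysed here.

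Myoblasts from newborn Sv129 mice, grown on a laminin and collagen coating, spent 4 hours in DMEM with 2% horse serum. The Wnt3a group received Wnt3a at 100 ng/ml, a Wnt family ligand that acts through β-catenin, and the control group received the medium alone. The comparison asks which transcripts differ after the exposure. Each group had 1 array, and the labels do not say how many animals or cultures stood behind it. Each value below therefore comes from 1 hybridisation, and the differences have no replicate check, no error and no p-value. The number of arrays limits the precision. The values that chose the genes are the ones described, so they support nothing beyond themselves.

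Synaptotagmins are membrane trafficking proteins that carry a tandem of C2 domains. In the classical members these domains bind calcium and phospholipids and couple a rise in calcium to SNARE-driven fusion of vesicles with the plasma membrane, as in neurotransmitter release and in the repair of torn membranes. Other members lack some or all of the calcium-binding residues and serve trafficking steps that do not sense calcium. In muscle, the family is best known from the motor nerve terminal and, in mice, from lysosome exocytosis during membrane repair.

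Among the 10 genes, Syt13 was much brighter on the Wnt3a array than on the control array, Syt17 was moderately brighter, and the others were close to equal or too dim to judge. A gene was counted as measured where the floor, set at 6 in log2 units or an intensity of 63, was reached by its brightest probe set on at least 1 array, which held for 7 of the 10. The floor was set by brightness and does not mark detection. Syt13 met it only through the Wnt3a array, so its presence among the measured genes already depended on its being higher there. Syt13 was the only measured member at least 2-fold higher, 1 of 7, and none was at least 2-fold lower. Over all 11397 measured genes, 0.254% passed 2-fold on the high side and 0.0614% on the low side. The same contrast chose the genes, so nothing is read from these shares. In bulk RNA a change in the make-up of the culture and a change in the RNA per cell cannot be told apart.

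**Figure D1:**
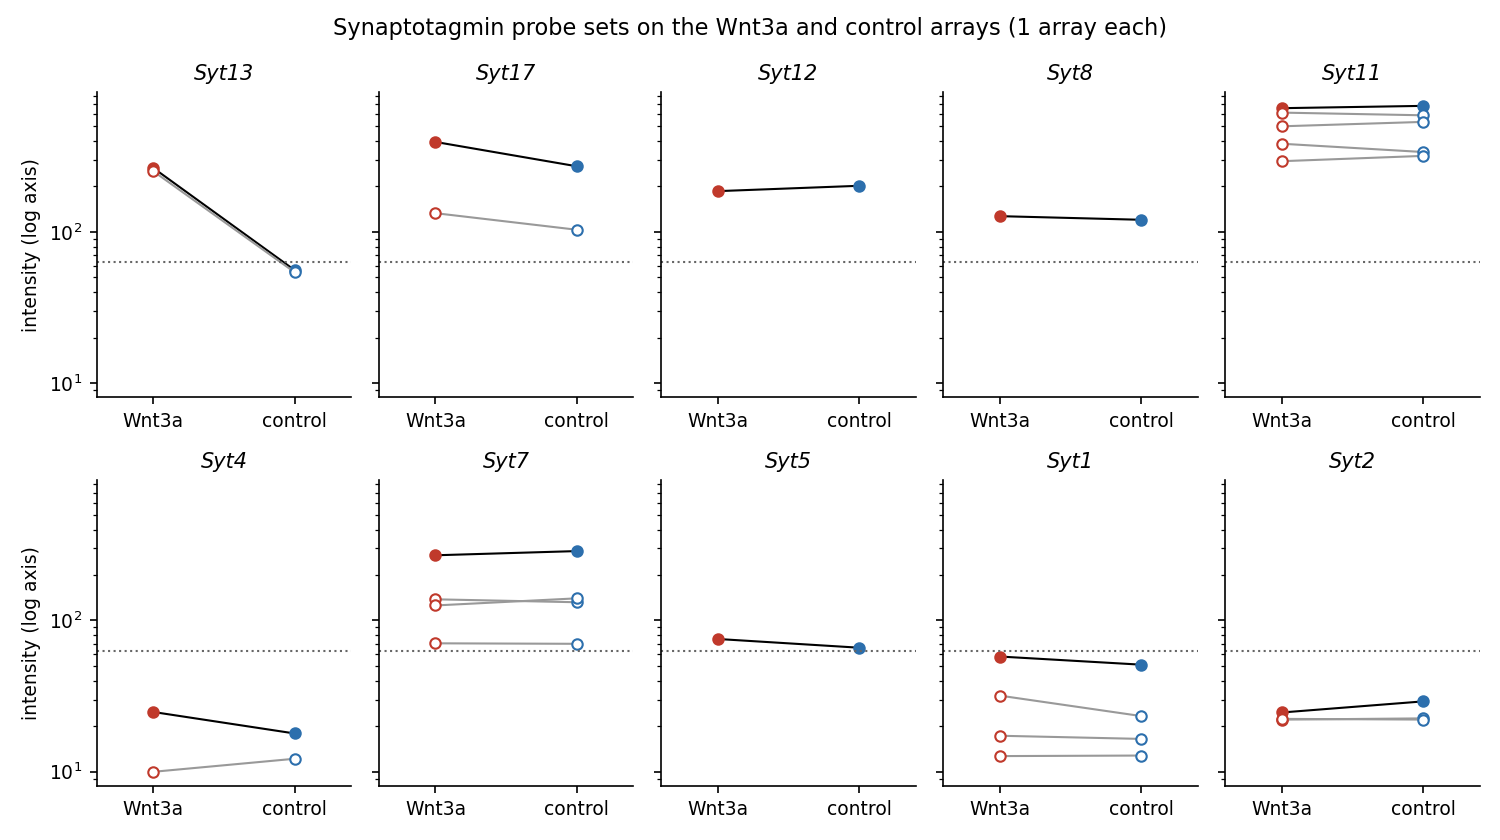
Intensity (log axis) of every synaptotagmin probe set on the Wnt3a array (red, left) and the control array (blue, right), with 1 array each, a line joining the same probe set, filled points for the brightest probe set of a gene and a dotted line at the floor of 63. Both probe sets of Syt13 stand at 265 and 252 with Wnt3a and at 55.8 and 54.0 in the control, while most other lines are nearly level.

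Syt13 is an atypical member whose C2 domains lack the calcium-binding residues, and in the mouse it is known from the development of pancreatic endocrine cells. Its brightest probe set (1434470_at) had an intensity of 265 with Wnt3a and 55.8 in the control, or 8.05 and 5.83 on the log2 scale. Its other probe set (1451045_at) had 252 with Wnt3a and 54.0 in the control. Both probe sets were thus above the floor on the Wnt3a array and below it on the control array. The log2 differences, Wnt3a minus control, were 2.23 and 2.20, a gap of 0.024. For comparison, the 3014 genes with exactly 2 probe sets at the floor had a median gap of 0.093 between them. Probe sets of a gene read the same labelled RNA, so their closeness speaks of probe noise and not of noise between cultures. The measured ratio of the brightest probe set was 4.68-fold. Set against the floor, that is with its control value raised to 63, Syt13 was 4.15-fold higher with Wnt3a. The floor does not mark detection, so this ratio is not a lower limit.

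By the measured values Syt13 was number 8 from the top in the order of differences over the 11397 measured genes. Its control value lay under the floor, and with all values raised to the floor it was number 7. Of the measured genes, 209 reached the floor with Wnt3a and not in the control, so all of these were higher by definition. Syt13 was among the 8 of them at least 2-fold higher, beside 0.254% of all measured genes. Nothing is read from that place, because the higher array put Syt13 in this group. Among the 2088 measured genes with a mean of both arrays from 5 to 7 on the log2 scale, a band chosen after the values were seen, the central 95% of differences ran from -0.36 to 0.42. Of these dim genes 7, Syt13 included, were at least 2-fold higher.

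The genes nearest to Syt13 in size of difference were taken as the 3 measured genes on either side of it, by the gap in log2 difference over the 2 arrays. Just above stood Pfn2 (2.38), an actin-binding profilin, Fst (2.43), which encodes the activin antagonist follistatin, and Ppargc1a (2.49), which encodes a coactivator of mitochondrial genes. Just below stood Tgfb2 (1.93), a TGF-β ligand, Osr2 (1.91), a zinc finger transcription factor, and Lifr (1.91), which encodes a receptor of LIF family cytokines. The gaps ran from 0.16 to 0.32. Other probe sets went down to 0.82 for Tgfb2, 0.02 for Osr2 and 0.37 for Lifr, and these lowest ones lay under the floor on both arrays. The probe sets of Pfn2, Fst and Ppargc1a went no lower than 2.32. Ppargc1a, Osr2 and Lifr were also below the floor in the control, so these places rest in part on values under it. With values raised to the floor Syt13 stood at 2.05 and Ppargc1a at 1.71, which turns their order, while Fst and Pfn2 stayed above Syt13 and Tgfb2, Lifr (1.82) and Osr2 (1.68) below it. Likeness here rests on a single difference per gene and says nothing of a shared course.

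The genes that flank Syt13 in the RefSeq gene order were nearly level or dim. This comparison was chosen after the values were seen. On one side lay Chst1, a sulfotransferase gene, with 25.9 with Wnt3a and 26.1 in the control, below the floor on both arrays. On the other lay Prdm11, a PR domain gene, with 172 with Wnt3a and 183 in the control, a log2 difference of -0.09. The next genes outward, Slc35c1 (-0.08), a GDP-fucose transporter gene, and Trp53i11 (0.18), a p53-inducible gene, differed little as well. With the spike-in scaling, in which added control RNAs define zero, Prdm11 and Slc35c1 would lie slightly above zero.

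Syt17 was the other member that stood outside the bulk of genes by its brightest probe set. It encodes a protein also called B/K, which has C2 domains but no transmembrane segment and was first described in brain and kidney. Its brightest probe set had an intensity of 394 with Wnt3a and 272 in the control, a ratio of 1.45-fold. Its dimmer probe set had 133 with Wnt3a and 103 in the control, a ratio of 1.28-fold. Both were above the floor on both arrays and higher with Wnt3a, by 0.53 and 0.36 on the log2 scale. The central 95% of all measured genes lay between -0.33 and 0.33, and 174 genes (1.53%) differed by as much as Syt17 or more in either direction. For measured genes with a mean from 5 to 7 on the log2 scale the upper bound was 0.42. The dimmer probe set, with a mean of 6.89, lay below that bound. Syt17 stayed below a threshold of 1.5-fold, which 0.886% of measured genes passed on the high side and 0.342% on the low side. With the spike-in scaling its ratio was 1.65-fold and passed that threshold, as did 1.89% of genes on the high side.

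**Figure D2:**
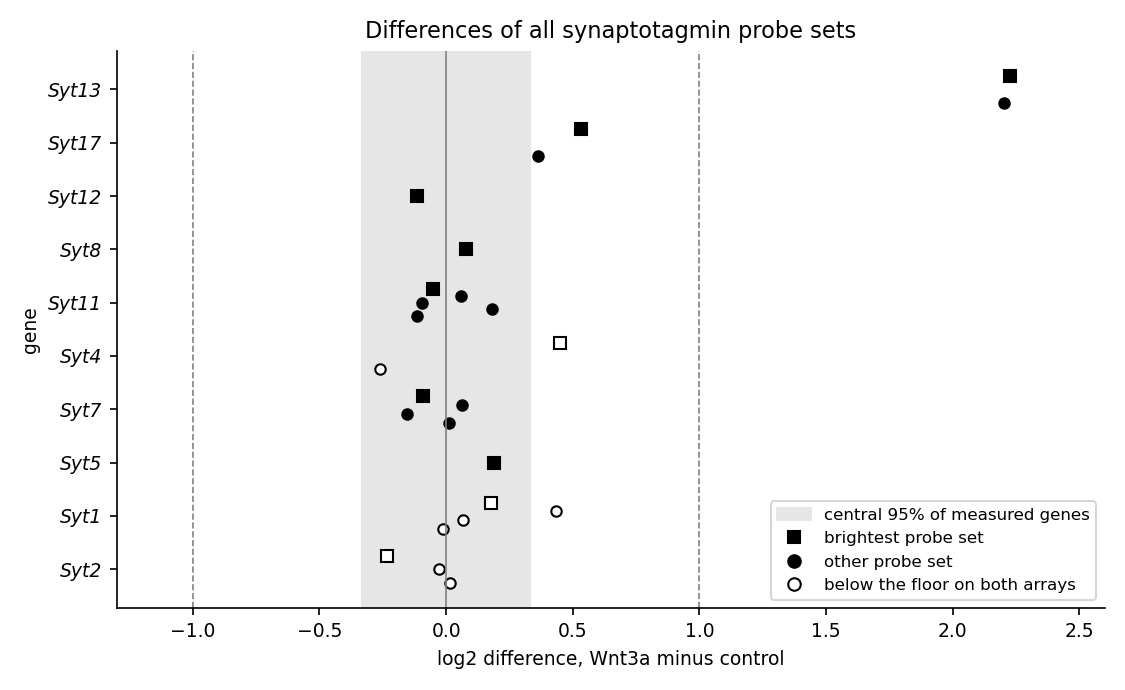
Log2 difference, Wnt3a minus control, of each of the 25 probe sets (1 array per group), by gene, with squares for the brightest probe set, open symbols for those under the floor on both arrays, grey for the central 95% of measured genes (-0.33 to 0.33) and dashed lines at 2-fold. Syt13 stands beyond 2 with both probe sets, both Syt17 probe sets lie right of the grey band, and the measured Syt12, Syt8, Syt11, Syt7 and Syt5 lie inside it.

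The remaining members without the full set of calcium-binding residues differed little. Syt12, which is phosphorylated at synapses and does not sense calcium, had an intensity of 186 with Wnt3a and 202 in the control on its only probe set (log2 difference -0.12). Syt8, known from the acrosome of mouse sperm, had 127 with Wnt3a and 120.5 in the control on its only probe set (0.08). In the gene order Syt8 lies beside the troponin gene Tnni2, part of the fast muscle contractile apparatus, which had 420.5 with Wnt3a and 416 in the control. Of all measured genes, 36.9% differed by as much as Syt12 and 52.8% by as much as Syt8.

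Syt11 and Syt4 form a pair of close relatives in which a calcium-binding aspartate of the first C2 domain is replaced. Syt11, which takes part in vesicle trafficking and endocytosis, was above the floor on all of its 5 probe sets. Its brightest had 660 with Wnt3a and 683 in the control, a log2 difference of -0.05. The other 4 lay between -0.12 and 0.18, so that 2 of the 5 were positive and 3 negative, and no common direction was seen. Syt4, which is known from neurons and endocrine cells, was below the floor on both of its probe sets. The brighter had 24.8 with Wnt3a and 17.9 in the control, and the dimmer 9.97 with Wnt3a and 12.2 in the control. These differences, 0.45 and -0.26, had opposite signs and belonged to intensities near the bottom of the scale.

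Among the calcium sensors, Syt7 and Syt5 were measured and nearly level. Syt7 is a sensor of high calcium affinity that serves slow release and lysosome exocytosis during membrane repair, and mice that lack it develop an inflammatory myopathy. All of its 4 probe sets were above the floor on both arrays. The brightest had 270.1 with Wnt3a and 288 in the control (-0.09), and the other 3 differed by 0.06, -0.16 and 0.01. The probe sets were evenly divided in sign, with an SD of 0.10 between them. Syt5, found on dense-core vesicles, had 75.5 with Wnt3a and 66.1 in the control on its only probe set (0.19), just above the floor on both arrays. Of the measured genes, 47.0% differed by as much as Syt7 and 17.8% by as much as Syt5.

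The fast sensors of neurotransmitter release were below the floor. Syt1, the main sensor of forebrain synapses, had 57.8 with Wnt3a and 51.0 in the control on its brightest probe set. Its other 3 probe sets had at most 31.8 with Wnt3a and 23.3 in the control, and 3 of its 4 differences were positive. Syt2, the main sensor at the neuromuscular junction, where it sits in the nerve terminal, had 24.6 with Wnt3a and 29.2 in the control on its brightest probe set. The other 2 probe sets of Syt2 stood between 22.1 and 22.5 on both arrays. No fold is given for these genes, because both arrays lay under the floor.

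The set as a whole showed no common direction in the deposited scaling. Of the 7 measured members 4 were higher and 3 lower with Wnt3a, beside 47.3% higher of all measured genes. With the spike-in scaling 8 reached the floor and all 8 were higher. That scaling also moved the median of all 11751 genes then measured to 0.19, and their share higher was not counted. The median log2 difference of the 7 was 0.079, and 0.014 without Syt13, beside -0.0057 over all measured genes. Of the 25 probe sets 15 were positive and 10 negative, and 19 lay within the central 95% of measured genes. Only 16 of them reached the floor on at least 1 array, while the band came from the brightest probe sets of measured genes. The share over all probe sets was not computed, so nothing is read from these counts. Of the 7 members with more than 1 probe set, Syt13 and Syt17 were the 2 in which every probe set had the same sign. All probe sets of Syt1, Syt2 and Syt4 lay under the floor on both arrays. The share of 1 sign over all genes with more than 1 probe set was not computed, so nothing is read from this count either.

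**Figure D3:**
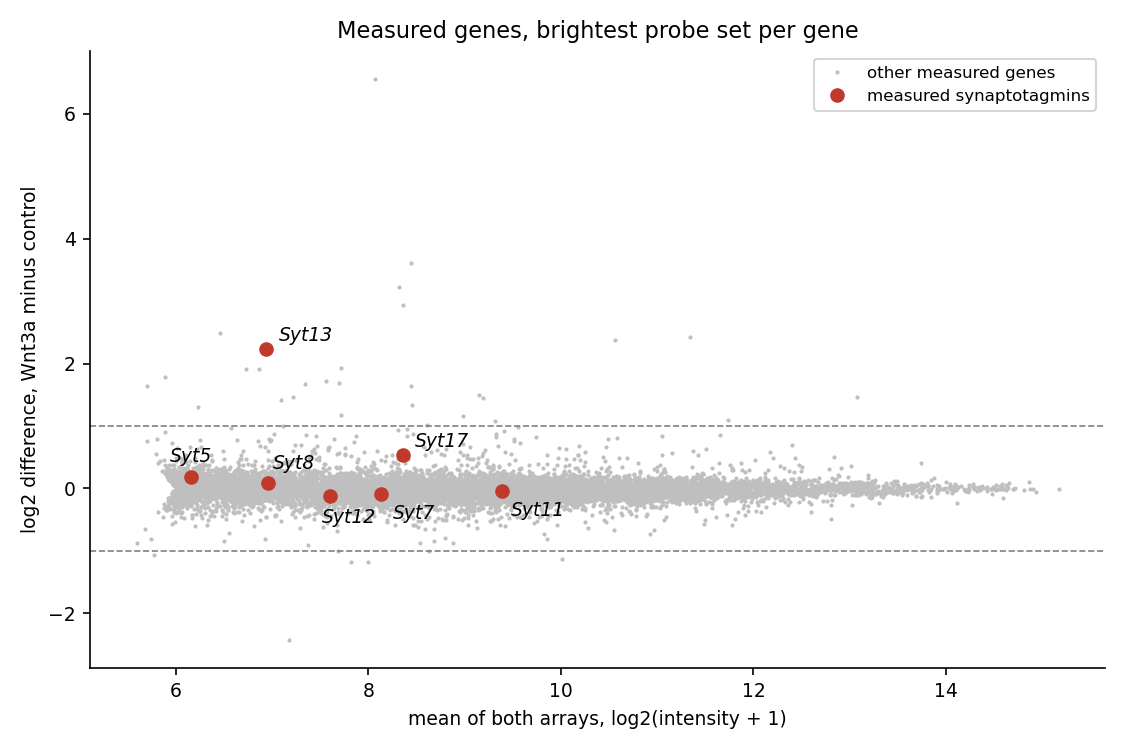
Log2 difference, Wnt3a minus control, against the mean of both arrays on the log2 scale for the brightest probe set of 11397 measured genes (grey points, 1 array per group), with the 7 measured synaptotagmins in red and dashed lines at 2-fold. Syt13 stands at 2.23, Syt17 at 0.53 at the upper edge of the grey cloud, and the other 5 within 0.19 of zero.

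Outside the 10 genes, Syt14 was the only synaptotagmin measured. Syt14, a member that does not bind calcium, had 135 with Wnt3a and 126 in the control (0.11). Syt3, Syt6 and Syt10 are calcium-binding relatives that pair through disulfide bonds. Syt3 had 41.6 with Wnt3a and 45.9 in the control, Syt6 had 43.2 with Wnt3a and 40.9 in the control on its brightest probe set, and Syt10 had 28.8 with Wnt3a and 22.0 in the control. Syt9, another fast sensor, had 13.7 with Wnt3a and 14.6 in the control, and Syt16 had 10.9 with Wnt3a and 9.22 in the control. All of these lay under the floor, so 8 of the 16 synaptotagmins on the array were measured in all.

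The proteins that synaptotagmins work with were mostly level between the arrays. Their counts stand beside 5389 higher and 5839 lower (47.3% higher) of all measured genes, few of which passed 1.5-fold, as given above, so that a list with none at 1.5-fold is near the background. SNARE proteins, which form the fusion machine itself, were measured in 33 of 35 cases on the array. Of these 8 were higher and 24 lower with Wnt3a, none by 1.5-fold, with a median of -0.035 that became 0.15 with the spike-in scaling. Those with the largest differences were Gosr1 (-0.19, and 0.17 on its other probe set), Sec22b (-0.16), Vamp3 (-0.16, from -0.22 to -0.13 on 5 probe sets) and Bet1l (-0.15, up to 0.09 on its other probe sets). Snap25, the neuronal partner of Syt1, was below the floor on both arrays.

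SNARE regulators and tethering factors were measured in 29 of 34 cases, 13 higher and 15 lower, none by 1.5-fold, with a median of -0.011 that became 0.18 with the spike-in scaling. Rab27b, a GTPase of secretory vesicles, differed most, with 83.6 with Wnt3a and 67.4 in the control (0.31, from 0.08 to 0.43 over 4 probe sets). Only the brightest of these probe sets reached the floor. Stxbp5, the syntaxin-binding protein tomosyn, followed at 0.26, with -0.36 on another probe set that lay under the floor on both arrays. Its relative Stxbp5l crossed the floor and was 1.01-fold higher against it, and Exoc5, an exocyst subunit, differed by -0.18.

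Relatives with C2 domains were measured in 15 of 30 cases, 10 higher and 5 lower, with a median of 0.063 (0.26 with the spike-in scaling). Rims2, an active zone scaffold, had 523 with Wnt3a and 357 in the control on its brightest probe set (0.55). Its other probe sets went down to -0.10, on one under the floor on both arrays. Sytl1, a Rab27-binding synaptotagmin-like protein, differed by -0.24, and Rph3a, a Rab3 effector, by 0.20 (-0.42 on its other probe set, under the floor on both arrays). Esyt1, an extended synaptotagmin that tethers endoplasmic reticulum to plasma membrane, differed by 0.16. The muscle repair protein gene Dysf had 184 with Wnt3a and 189 in the control, and its relative Myof, which serves myoblast fusion in mice, had 2834 with Wnt3a and 2958 in the control. Dysf and Myof were named after their values were seen.

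Granule and synaptic vesicle proteins were measured in 16 of 30 cases, 11 higher and 4 lower, with a median of 0.097 (0.30 with the spike-in scaling). The only one changed by 2-fold was Calcb, a neuropeptide carried in dense-core vesicles, with 2617 with Wnt3a and 26.7 in the control. Set against the floor, Calcb was 40.9-fold higher. Syn1 (0.43), which tethers synaptic vesicles, Sst (0.38), the peptide hormone somatostatin, and Syngr3 (0.33), a synaptic vesicle membrane protein, were higher by less, on intensities of at most 161. The granule markers Chga, Chgb and Pcsk1 were below the floor on both arrays, as was the vesicle marker Syp.

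**Figure D4:**
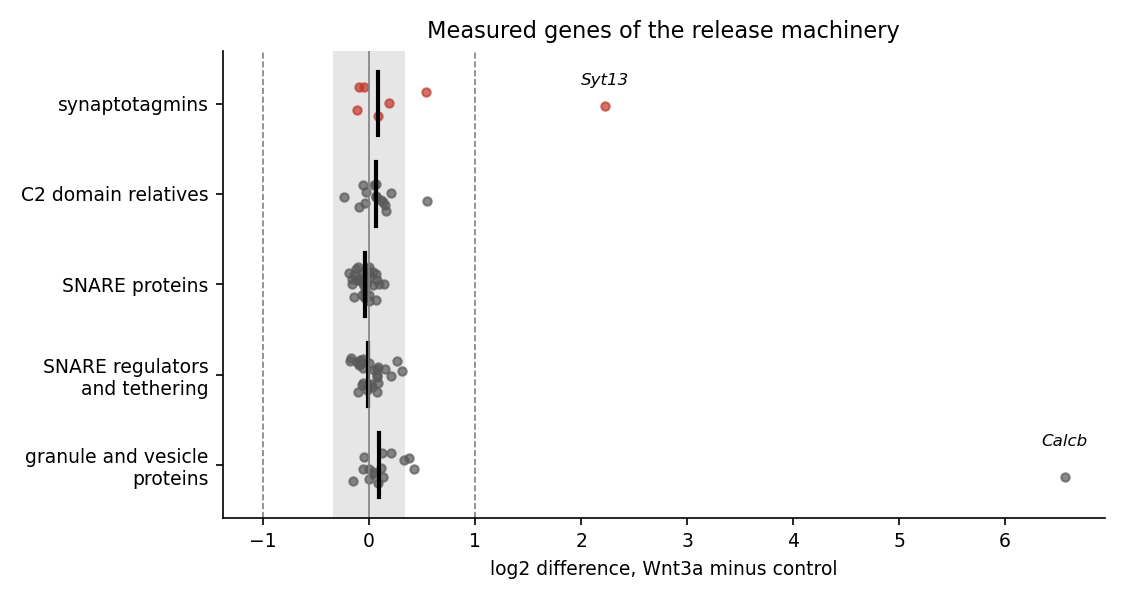
Log2 difference, Wnt3a minus control, of the measured synaptotagmins (red, 7 genes) and of 4 groups of partner genes (grey), with black bars at each median, a grey band for the central 95% of measured genes and dashed lines at 2-fold (1 array per group). Syt13 at 2.23 and Calcb at 6.56 are the points beyond 2-fold, and the medians lie between -0.035 and 0.097 in the deposited scaling and between 0.15 and 0.32 with the spike-in scaling.

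The markers of myoblasts were all above the floor (8 of 8), with a summed intensity of 40918 with Wnt3a and 39462 in the control, with 5 higher, 3 lower and a median difference of 0.043. The largest differences were those of Myf6 (0.75), Myf5 (0.49) and Des (0.32), and the lower ones were Itga7 (-0.26), Myod1 (-0.13) and Pax7 (-0.12). The other probe set had the opposite sign for Des (-0.09), Myod1 (0.03) and Pax7 (0.12), but for Des and Myod1 it lay under the floor on both arrays. Synaptotagmins are best known from neurons and endocrine cells, whose markers were largely dim. Neuronal markers reached the floor in 3 of 10 cases, with sums of 2065 with Wnt3a and 1639 in the control, namely Tubb3 (0.83), Stmn2 (0.05) and Rbfox3 (-0.04), while Snap25, Syp, Nefl, Nefm, Map2, Elavl4 and Gap43 were below it. Endocrine markers reached it in 2 of 9 cases, Sst and Ins2 (0.26), with sums of 345 with Wnt3a and 312 in the control. Schwann cell markers reached it in 3 of 6 cases (sums of 727 with Wnt3a and 683 in the control), Erbb3 (0.13), Sox10 (0.07) and Ngfr (0.04). Fibroblast markers reached it in 1 of 8 cases, Pdpn (-0.01), with Pdgfra below it, and their sums were 1690 with Wnt3a and 1686 in the control. Leukocyte markers reached it in 3 of 7 cases, Laptm5 (-0.28), Cd3e (0.25) and Csf1r (-0.03), with Ptprc below it, and sums of 459 with Wnt3a and 450 in the control. Endothelial markers did so in 2 of 6 cases, Tek (1.12-fold lower against the floor) and Kdr (0.00), with Pecam1 below it, and sums of 220 with Wnt3a and 250.4 in the control. Smooth muscle markers did so in 4 of 6 cases (sums of 10938 with Wnt3a and 9074 in the control), among them Acta2 (0.33), Lmod1 (0.18) and Tagln (0.06). Lung epithelial markers did so in 3 of 6 cases, with sums of 325 with Wnt3a and 627 in the control. These were Scgb1a1 (5.23-fold lower against the floor), Sftpc (1.24-fold lower against the floor) and Sftpb (0.09). On its other probe set, under the floor on both arrays, Sftpc differed by 0.04. Some of these markers had other probe sets of the opposite sign. These went down to -0.05 for Erbb3, -0.06 for Sox10 and -0.11 for Ngfr, and up to 0.21 for Laptm5 and 0.36 for Csf1r. Those of Erbb3 and Ngfr lay under the floor on both arrays. The part of Tubb3, Scgb1a1 and the other moving markers in the differences of the synaptotagmins was not tested.

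In the deposited scaling the bulk of the genes defines zero. On the Wnt3a array the spike-in controls were the lower ones, with a median difference of -0.17 over 18 hybridisation controls and -0.21 over 24 poly-A controls. Setting these controls to a median of zero moves the median of all measured genes to 0.19. The difference of Syt13 then becomes 2.42 and that of Syt17 0.72, while Syt7 (0.10), Syt11 (0.14) and Syt12 (0.07) change sign. Intensities of different probe sets depend on the probes, so they do not rank the synaptotagmins by abundance.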

How the data were processed

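Gene expression was measured on 2 Affymetrix arrays, 1 per group. The deposited table holds 1 intensity per probe set, made by the authors with RMA, affy and limma, per the submitters' processing notes, with no versions, order or settings. The intensities ran from 7.07 to 36604 with Wnt3a and from 7.09 to 37075 in the control (medians 58.7 and 57.9), so they are on a linear scale. Probe sets were named from GEO's platform annotation. No genome build was named in the sources used.

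From these values log2(intensity + 1) was computed, so differences at low intensity are slightly understated. The 64 control probe sets, 932 with several genes and 9160 without a gene name were left out. Each gene was represented by its brightest probe set (highest mean). No test was possible with 1 array per group. The genes, gene lists and tests were chosen with earlier results of these data known. Named were all 10 synaptotagmins, the other synaptotagmins, up to 4 measured genes with the largest differences per partner list, up to 3 and the leading marker per cell type, and 3 genes on either side of Syt13. Of 224 list symbols 211 were found on the array. Gene order came from the RefSeq table of GRCm38.p6. A planned protein comparison was not run, because no protein sequences were used here. The procedure was run on simulated data, in which fold changes were added only to genes well above the floor in the control. That run covers neither a gene under the floor in the control, as Syt13 was, nor noise between cultures. Alternatives concerned the pseudocount, the floor, the choice of probe set, the scaling and the fold threshold. Python 3.11.15, numpy 2.4.6, pandas 2.3.3, statsmodels 0.14.6 and matplotlib 3.10.9 were used.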

Additional observations from a re-analysis of the deposited data

How the results depend on the processing

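Syt13 was the single member at least 2-fold changed under all 13 alternatives run, thresholds of 1.5-fold and 3-fold included, and its difference of 2.23 ran from 1.97 to 2.42 over the 8 alternatives that could move it. It moved by more than the pooled SD between probe sets of a gene (0.12, 5084 genes) with a pseudocount of 16 (1.97), with values raised to the floor (2.05) and with the spike-in scaling (2.42). Syt17 stayed positive in all 8 (0.45 to 0.72) and passed 1.5-fold with the spike-in scaling. Syt7 and Syt12 changed sign with the spike-in scaling, and Syt11 did so there and without probe sets that can match several transcripts (0.06). Values moved by less than that SD, or counts stayed within 1.5 times, in 161 of 196 comparisons. Some of these could not change under their setting and many share the same genes, so that share is no measure of stability. The median of measured members was 0.24 with a floor of 8 (4 members) and 0.32 with the spike-in scaling. Spike-in scaling also gave medians of 0.26 for C2 relatives, 0.15 for SNARE proteins, 0.18 for SNARE regulators and 0.30 for vesicle proteins. It adds the same amount to every gene and also brings more genes over the floor. With it 8 members, 17 C2 relatives and 18 vesicle proteins were measured. The genes at least 2-fold changed, 29 higher and 7 lower, became 49 and 1 with it. At 1.5-fold they were 101 and 39, and at 3-fold 17 and 1. Lower genes numbered 4 with a pseudocount of 16 and 4 with the mean of all probe sets. No paired analysis was possible because each group had 1 array. Dim intensities limit Syt1, Syt2 and Syt4, which lay below the floor on both arrays.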
